A study of Bos taurus with 11 samples.

Results

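Cathepsins are proteases of the lysosome, and cystatins are small proteins that block those of the cysteine class. Here 10 of their genes were followed in bovine endometrium: the cysteine cathepsins CTSB, CTSC, CTSH, CTSK, CTSS and CTSZ, the serine carboxypeptidase CTSA, the aspartic protease CTSD and the secreted inhibitors CST3 and CST6. Every non-control probe whose gene name on the array equalled one of these symbols was taken, which gave 23 of 43653 probes. Endometrial biopsies had been collected on day 7 of the oestrous cycle and hybridised to 1-colour Agilent oligonucleotide arrays, 1 array for each cow. The subfertile group held 5 cows that had not conceived in 3 embryo transfers or inseminations in a row, although their genital tracts showed nothing abnormal and their cycles looked regular. The 6 fertile cows had become pregnant within 3 such attempts before the biopsy and did so again at the next transfer. All were cattle (Bos taurus), and the labels used here give neither their breed nor their age. The comparison asks how the endometrium of such cows differed in transcript levels on the same day of the cycle.

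Cathepsins are made as inactive precursors, carried to the lysosome mainly by mannose 6-phosphate receptors and activated there at low pH, where they break down proteins taken up from outside or delivered from within the cell. Some are also secreted, and then cystatins outside the cell limit those of the cysteine class. In the uterus of sheep, cathepsins and cystatin C are known as products of the endometrium around early pregnancy that respond to progesterone, and both are counted among the proteins that feed and remodel the early conceptus.

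Most of the genes carried several probes at different places of the transcript, named here by the transcript base at which the probe starts, as the array's annotation gives it. Each probe is a single 60-base sequence, and genome positions are on the build Btau_3.1 given in the file headers. The probe of CTSK with the largest difference between the groups lies at base 726 of the transcript. Its genome coordinates, chr3:21494703-21499528 on the plus strand, span 4826 bases for a 60-base probe. It is shown because the gene's probes differed in the size of their difference, as are the inner probes of CTSC (chr29:7574264-7574323, plus strand) and CTSA (chr13:75423652-75423711, plus strand), whose difference was not that of the probe nearer the 3′ end.
CTSK 726: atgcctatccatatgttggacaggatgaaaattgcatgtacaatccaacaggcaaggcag
CTSC 837: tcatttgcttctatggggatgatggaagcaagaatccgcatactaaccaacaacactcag
CTSA 644: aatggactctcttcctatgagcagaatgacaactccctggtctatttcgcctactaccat

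The other end of the transcripts is shown by 4 probes that contain the letters AATAAA, the hexamer that usually precedes a poly(A) tail, printed here in capitals within 30 bases of the probe. They belong to CTSB (chr8:7465875-7465934, plus strand), CTSD (chr29:51575333-51575391, plus strand), CTSZ (chr13:58107097-58107156, plus strand) and CST3 (chr13:42342094-42342153, minus strand). With AATAAA or its reverse complement TTTATT counted, 4 of the 23 probes held the motif (17.4%), against 12.5% of all 43653 probes, which is a description of where the probes lie and not of a site. These are the brightest probes of their genes, and they are the ones by which those genes are represented below.
CTSB 1785: aggaatggctgccAATAAAaagcctctcct
CTSD 1917: agttggcacgaaAATAAAgttgttcaggcc
CTSZ 1351: gcccaagtgatgAATAAAatgcacacttca
CST3 662: tgctattttactcAATAAAaaagtaacagc

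All values are log2 processed signals from which the 75th percentile of the same array was subtracted, so that 0 marks a probe exactly as bright as that percentile. Differences are subfertile minus fertile on that scale, with 5 subfertile and 6 fertile cows unless stated. No level is compared between different probes, because probes bind their targets unequally well. The arrays themselves differed by group: the median processed signal was 53.8 to 92.7 on subfertile arrays and 161 to 452 on fertile arrays, a mean difference of -1.93 on the log2 scale (exact permutation p = 0.00216, two-sided, the smallest that 462 splits allow). Probes well above background made up 68.4% ± 3.58 on subfertile arrays and 74.2% ± 1.89 on fertile arrays (SD, exact permutation p = 0.0152, two-sided). None of the known slides and scan days held both groups, so slide and scan day cannot be told apart from fertility, and the subfertile arrays were scanned on 1 day against 3 known days for fertile arrays. Limma called 7066 of 31876 tested probes (22.2%) at an adjusted p below 0.05, 14.8% of the tested probes higher and 7.38% lower in subfertile cows, and with the scan day as a random block it called 975. Of the 23 cathepsin and cystatin probes, 22 were well above background on all 11 arrays, and all 23 were tested. The other, CTSS at 1318, fell short only by a spot dropped as an outlier.

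Few of the cathepsins and cystatins differed between the endometrium of subfertile and fertile cows past the test's threshold, and those that did were lower in subfertile cows, at 1 probe of the gene. By the brightest probe of each gene, none of the 10 genes passed the adjusted threshold in limma, against 22.1% of 18504 genes (14.2% higher and 7.88% lower), and 2 had an unadjusted p below 0.05 (CTSA and CTSC), against 36.7% of genes. Over all 23 probes, 2 were called (8.70%), both lower in subfertile cows: a probe of CTSK, the collagen-degrading cathepsin of osteoclasts, and a probe of CTSS, the cathepsin that trims the invariant chain of MHC class II. None was called higher, 4 had an unadjusted p below 0.05 (36.6% of all tested probes did), 15 differences lay below 0 and 8 above, and the median difference was -0.04, against 0.07 over all tested probes. With normexp background correction 5 probes were called, against 17081 of 31876 tested probes, and the median difference over all tested probes also rose. Of the 5, 2 were higher in subfertile cows: CTSA at 644 by 0.39 (adjusted p = 0.0124) and CTSB at 97 by 0.43 (adjusted p = 0.0094). As reported, these differences were 0.17 and 0.05. At every one of the 23 probes the values of the groups overlapped, while the groups did not overlap at 13.5% of all tested probes. In biopsies of whole tissue, fewer cells of a type and less RNA per cell cannot be told apart.

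**Figure D1:**
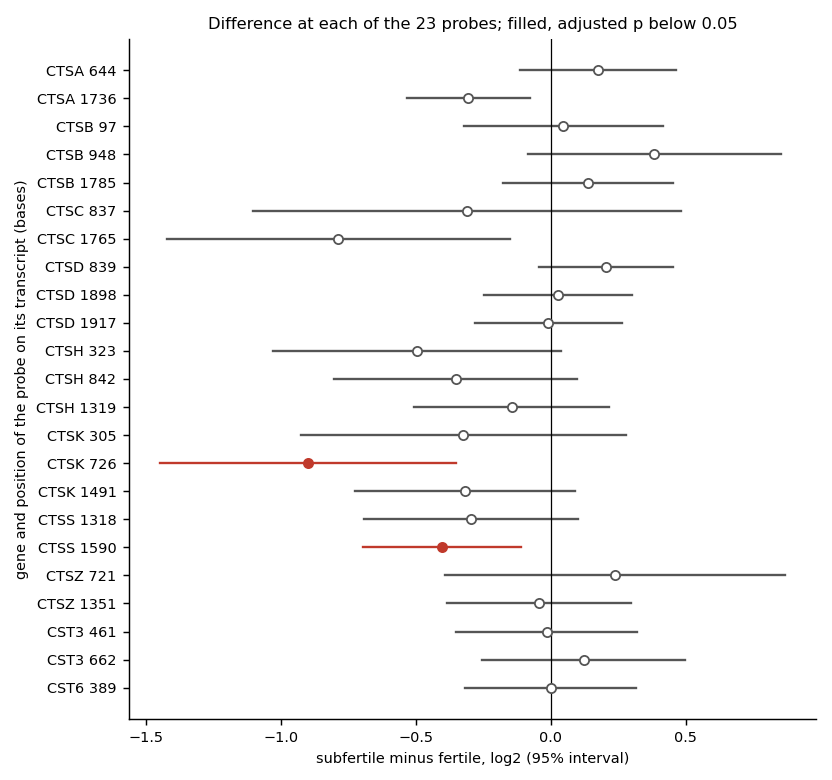
Difference between subfertile and fertile cows at each of the 23 probes (points, subfertile minus fertile, log2) with its 95% interval from limma (bars), grouped by gene and ordered by the base at which the probe starts. The CTSK probe at 726 and the CTSS probe at 1590 are filled, as the ones with an adjusted p below 0.05, and differences run from -0.90 to 0.38.

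CTSK is best known for cutting collagen, in bone and in other connective tissue. Its probe at 726 read -4.50, -4.00, -3.64, -3.64 and -4.14 in subfertile cows 1 to 5, while in the fertile cows it ran from -4.00 through a median of -2.96 to -2.56. The lowest fertile value, that of cow 6, fell among the subfertile ones, and the other 5 fertile cows stood above every subfertile cow. The means were -3.98 ± 0.36 in subfertile and -3.08 ± 0.51 in fertile cows (SD), a difference of -0.90 (SE 0.25, 95% interval -1.45 to -0.35, 0.536-fold, limma adjusted p = 0.0257). The probe is dim, with processed signals of 29.1 to 55.2 on subfertile arrays and 153 to 611 on fertile ones. With normexp background correction the difference was 0.03 (adjusted p = 0.904), and with the slide or the scan day as a random block the adjusted p was 0.0734 and 0.200. The call was also lost without fertile cow 1 or 3 (-0.79 and -0.84) or without subfertile cow 1, 2 or 5 (-0.77, -0.90 and -0.86), at an adjusted p of up to 0.0582.

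The other probes of CTSK also had lower means in subfertile cows, by amounts that did not pass the test. At 1491, the brightest, subfertile cows 1 to 5 read 0.91, 1.38, 1.65, 1.68 and 1.27, and fertile cows ran from 1.06 through a median of 1.82 to 1.93. Subfertile cows 3 and 4 stood beside fertile cow 5, at 1.65, and fertile cow 6 stood below subfertile cows 2 to 5. The difference was -0.32 (SE 0.19, 95% interval -0.72 to 0.09, limma adjusted p = 0.240). At 305 the means were -2.87 ± 0.39 in subfertile and -2.54 ± 0.57 in fertile cows, a difference of -0.33 (SE 0.28, adjusted p = 0.423). With normexp the difference at 305 was 0.11.

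CTSS differs from most lysosomal cysteine proteases in that it stays active at neutral pH, and it is made mainly by antigen-presenting cells. Its probe at 1590 read 1.63, 1.87, 1.99, 2.33 and 1.70 in subfertile cows 1 to 5, against 2.13, 2.30 and 2.49 as the lowest, median and highest fertile values. Only subfertile cow 4 reached the fertile range. The means were 1.90 ± 0.28 and 2.31 ± 0.14 (SD, subfertile and fertile cows), a difference of -0.40 (SE 0.13, 95% interval -0.70 to -0.11, 0.755-fold), just past the threshold at a limma adjusted p of 0.0495. With the slide as a random block the adjusted p was 0.138, and with the scan day 0.310. It stayed below 0.05 without fertile cow 6 (-0.44) or subfertile cow 4 (-0.51), and not without any other cow (-0.43 to -0.34). The brighter probe at 1318 had 2.31, 2.51, 2.73 and 3.16 in subfertile cows 1 to 4, and 2.64, 3.02 and 3.18 as the lowest, median and highest fertile values. Its spot on the array of subfertile cow 5 was an outlier and was dropped, so that 4 subfertile cows entered the fit. The difference there was -0.30 (SE 0.18, 95% interval -0.69 to 0.10, adjusted p = 0.261).

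CTSC, or dipeptidyl peptidase I, removes pairs of residues from the ends of proteins and so activates the serine proteases stored in the granules of neutrophils, mast cells and cytotoxic lymphocytes. It varied more between cows than any other of the 10 genes by its brightest probe, over a range of 2.13 on the log2 scale. At 1765 the subfertile cows 1 to 5 read -1.72, -1.08, -1.28, -0.55 and -0.83, and the fertile cows ran from -1.13 through a median of -0.35 to 0.41. Fertile cows 5 and 6 lay within the subfertile range, and fertile cows 1 and 3, which shared a slide and a scan day, were the highest of all 11. The means were -1.09 ± 0.45 in subfertile and -0.31 ± 0.59 in fertile cows (SD), a difference of -0.79 (SE 0.29, 95% interval -1.42 to -0.15, 0.579-fold) that missed the threshold at a limma adjusted p of 0.0722. Within the fertile group, the pair of cows on another slide (cows 2 and 5) averaged 0.75 below cows 1 and 3, from means of -0.41 and 0.33, which is close to the size of the difference between the groups. Without fertile cow 6 the difference was -0.95 (adjusted p = 0.0274), and with median centring it was -0.88 (0.0448). The adjusted p was 0.152 with the slide and 0.337 with the scan day as a random block, and without subfertile cow 1 the difference was -0.63 (0.151).

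The inner probe of CTSC, at 837, had a smaller difference. Its means were -3.79 ± 0.54 in subfertile and -3.47 ± 0.75 in fertile cows (SD), with a difference of -0.31 (SE 0.36, 95% interval -1.10 to 0.48, adjusted p = 0.567). That interval is the widest of all 23 and leaves room for a change of either direction. The probe is dim, with processed signals of 34.6 to 77.0 on subfertile arrays and 104 to 442 on fertile ones. With normexp the difference was 0.39 (adjusted p = 0.237).

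CTSH acts mainly as an aminopeptidase, and its 3 probes all had lower means in subfertile cows without passing the test. The brightest, at 1319, read 2.37, 2.53, 3.11, 2.76 and 2.87 in subfertile cows 1 to 5, with 2.49, 2.90 and 3.19 as the lowest, median and highest fertile values. The groups covered nearly the same span, and the difference was -0.15 (SE 0.16, 95% interval -0.51 to 0.22, limma adjusted p = 0.558). The dimmer probes, at 842 and 323, had larger differences of -0.35 (adjusted p = 0.239) and -0.50 (adjusted p = 0.163). That order depends on the background correction: with normexp the differences were -0.07 at 842, 0.19 at 323 and -0.27 at 1319. At 323 the processed signals were 39.3 to 66.7 on subfertile arrays. At all 3 places fertile cows 1 and 3 were the highest fertile cows and fertile cow 6 the lowest.

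CTSB, an abundant lysosomal protease that also trims residues from the carboxyl end of proteins, had higher means in subfertile cows at its 3 probes, and none passed the test. At 1785 subfertile cows 1 to 5 read 4.19, 4.30, 4.56, 4.60 and 4.10, and the lowest, median and highest fertile values were 3.90, 4.25 and 4.48. Subfertile cows 3 and 4 were the highest of all and fertile cows 3 and 1 the lowest. The difference was 0.14 (SE 0.14, 95% interval -0.18 to 0.45, limma adjusted p = 0.519), smaller than the 0.44 by which fertile cows 2 and 5 exceeded fertile cows 1 and 3, the pair on another slide. Its inner probes differed by 0.38 at 948 (SE 0.21, adjusted p = 0.219) and by 0.05 at 97 (adjusted p = 0.871).

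CTSZ, a carboxypeptidase also called cathepsin X, showed no difference that passed the test. Its probe at 1351 read 2.97, 2.75, 2.93, 3.32 and 3.09 in subfertile cows 1 to 5, and from 2.63 through a median of 3.13 to 3.40 in fertile cows. The subfertile values lay inside the fertile range, with a difference of -0.04 (95% interval -0.38 to 0.30, limma adjusted p = 0.870). The probe at 721 had 0.25 ± 0.36 in subfertile and 0.01 ± 0.62 in fertile cows (SD), a difference of 0.24 (adjusted p = 0.583). Fertile cow 6 stood at -1.14 there, below every other cow, and without it the difference was 0.008.

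Of the cathepsins outside the cysteine class, CTSA was the one closest to the threshold. CTSA is a serine carboxypeptidase that also holds β-galactosidase and neuraminidase together in the lysosome. At 1736 it read 3.41, 3.19, 3.27, 3.16 and 3.14 in subfertile cows 1 to 5, and the lowest, median and highest fertile values were 3.32, 3.58 and 3.71. Subfertile cow 1 was the only one inside the fertile range. The means were 3.23 ± 0.11 and 3.54 ± 0.16 (SD, subfertile and fertile cows), a difference of -0.31 (SE 0.10, 95% interval -0.53 to -0.08, 0.808-fold, limma adjusted p = 0.0549). Quantile normalization gave -0.45 (adjusted p = 0.0159), while the slide as a random block gave an adjusted p of 0.118. Without fertile cow 2 or subfertile cow 1 the adjusted p was 0.0375 and 0.0469, at -0.35 in both fits. The inner probe, at 644, ran the other way, at -2.23 ± 0.24 in subfertile and -2.40 ± 0.18 in fertile cows (SD), a difference of 0.17 (SE 0.13, adjusted p = 0.365). At 1736, fertile cows 2 and 5 averaged below fertile cows 1 and 3, the pair on another slide. That contrast, of -0.33, is about the size of the difference between the groups. It was -0.42 for CTSH at 1319, -0.38 for CTSK at 726 and -0.03 for CTSS at 1590.

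CTSD, the main aspartic protease of lysosomes, was close to equal in the groups. At 1917 it read 4.96, 4.59, 4.70, 4.53 and 4.87 in subfertile cows 1 to 5, against 4.55, 4.73 and 4.96 as the lowest, median and highest fertile values. Both groups filled the same span of less than 0.5, and the difference was -0.01 (95% interval -0.28 to 0.26, limma adjusted p = 0.963). Its probe at 1898, which shares 41 bases with the one at 1917 and so is no separate measurement of the transcript, differed by 0.03 (adjusted p = 0.900). At 839 the difference was 0.20 (95% interval -0.05 to 0.45, adjusted p = 0.219).

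The inhibitors did not differ between the groups by more than the spread between cows. CST3, or cystatin C, is a secreted inhibitor of cysteine cathepsins that is found in most body fluids. At 662 it read 4.72, 5.18, 5.27, 5.49 and 5.46 in subfertile cows 1 to 5, and 4.86, 4.99 and 5.55 were the lowest, median and highest fertile values. Subfertile cow 1 was the lowest of all cows and fertile cow 4 the highest, and the difference was 0.12 (SE 0.17, 95% interval -0.26 to 0.50, limma adjusted p = 0.647). Its probe at 461 differed by -0.02 (95% interval -0.35 to 0.32, adjusted p = 0.951). CST6, or cystatin E/M, inhibits legumain as well as cathepsins and has 1 probe, at 389. It read 2.51, 2.26, 2.64, 2.95 and 2.19 in subfertile cows 1 to 5, and from 2.31 through a median of 2.47 to 2.79 in fertile cows, with a difference below 0.01 in size (95% interval -0.32 to 0.32, adjusted p = 0.995). The subfertile cows held both the highest and the lowest value of CST6.

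**Figure D2:**
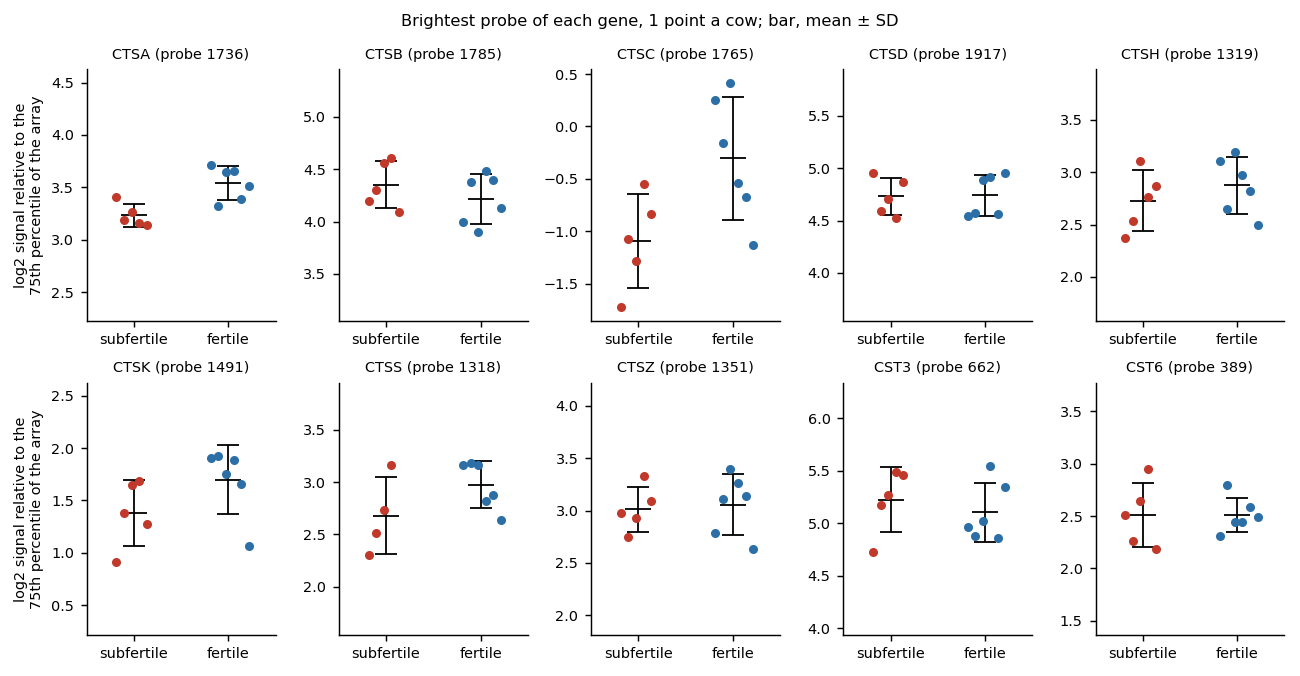
Log2 signal relative to the 75th percentile of the array (y axis, the same span of values in each panel) at the brightest probe of each gene, 1 point a cow in order of cow number, with 5 subfertile and 6 fertile cows and bars for mean ± SD (CTSS has 4 subfertile points). CTSC has the widest spread, from -1.72 to 0.41, and the panels of CTSD, CTSZ and CST6 show groups that overlap over most of their range.

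Intervals show how large a difference these arrays leave possible. By the brightest probe, the 95% interval lay within 0.5 of 0 on either side for 5 of the 10 genes, namely CTSB, CTSD, CTSZ, CST3 and CST6. For the other 5 it reached further below 0, most in CTSC. The median within-group SD of the 23 probes was 0.286, close to the 0.281 of all tested probes, and it ran from 0.141 to 0.668. The median size of their difference was 0.238, against 0.283 over all tested probes.

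The spread between cows was shared by many of the probes. Among subfertile cows, cow 1 was the lowest of its group at 12 of 23 probes and cow 4 the highest at 13. Among fertile cows, cow 6 was the lowest at 14 and cow 3 the highest at 8. As a median over the probes, subfertile cow 4 stood at 0.30 and subfertile cow 1 at -0.27 relative to the mean of the subfertile cows, and fertile cow 6 at -0.38 relative to the mean of the fertile cows. The low values of subfertile cow 1 and fertile cow 6 came together at CTSC, CTSH and CTSK, and their values at CTSD were among the highest at the probe at 1917. Probes of the same gene are not separate measurements in these counts. In a principal component analysis over the tested probes, these cows also had the lowest scores on the second component (17.1% of the variance). The scores were -47.0 for subfertile cow 1 and -73.5 for fertile cow 6. Their position is thus not particular to these genes. The array of fertile cow 6 is also the one whose file lacks a header, so that its slide and scan day are unknown.

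**Figure D3:**
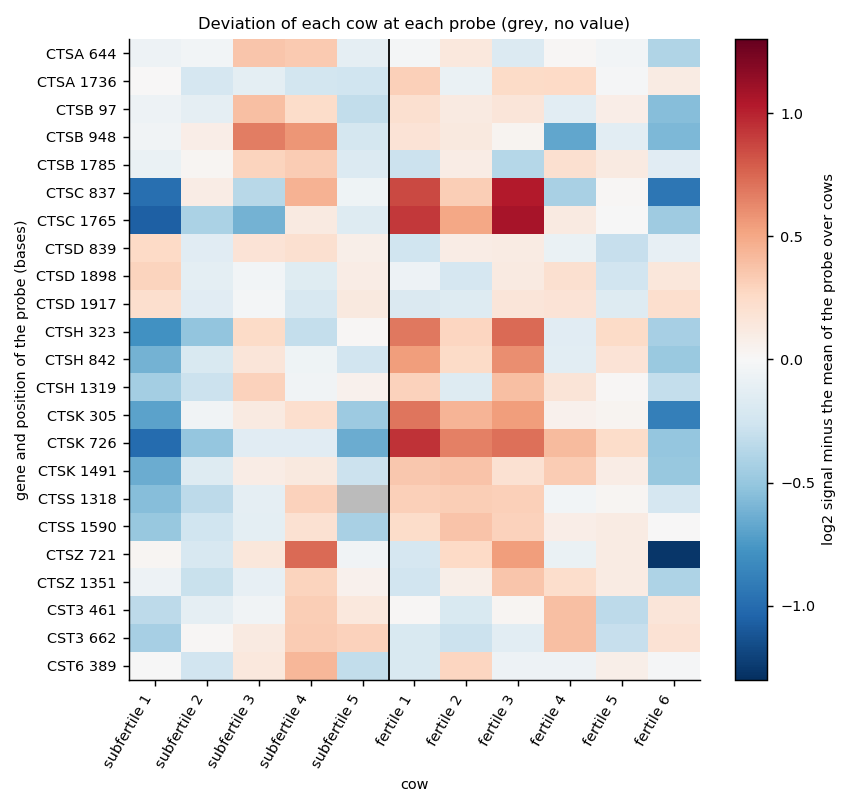
Deviation of each cow (columns, 5 subfertile left of 6 fertile) from the mean over cows at each of the 23 probes (rows), as log2 signal, red above and blue below the mean and grey for the missing spot. The rows of CTSC, CTSH and CTSK are blue in subfertile cow 1 and fertile cow 6 and red in fertile cows 1 and 3, and the CTSD rows do not follow that order.

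Since the probes of CTSA and CTSC disagreed in size or direction, the gap between the probe nearest the 3′ end and the probe nearest the 5′ end was fitted over every gene with at least 2 tested probes 60 bases or more apart on 1 transcript. This comparison was added after the values of the 10 genes had been seen. Of 4945 genes, 31.5% had a gap that differed between the groups in limma, 12.2% larger and 19.3% smaller in subfertile cows, and the median gap over all genes was nearly equal, at 2.94 ± 0.04 in subfertile and 2.97 ± 0.09 in fertile cows (exact permutation p = 0.431, two-sided). Of the 9 genes of the family with such a pair, 2 were called, CTSA and CTSC, both with a smaller gap in subfertile cows. These are the genes whose probes prompted the comparison. Their adjusted p-values are therefore not those of a test chosen beforehand, and the calls are no separate support for a difference. For CTSC the gap was 2.87, 2.44, 2.70, 2.61 and 2.84 in subfertile cows 1 to 5, and it ran from 2.93 to 3.50 in fertile cows. The groups did not overlap, and the share of all genes whose gaps did not overlap is not given here. The difference was -0.48 (SE 0.13, adjusted p = 0.0157), and it was called whichever cow was left out. With the slide as a random block it was -0.50 (adjusted p = 0.0341), though no known slide held both groups. With the scan day as a random block the adjusted p was 0.147, with the replicate block it was 0.0837 (-0.42), and with normexp the difference was -1.06. The 5′ probe of this gap, CTSC at 837, is dim, and its own difference turned from -0.31 to 0.39 with normexp.

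The gap of CTSA was 5.46 ± 0.27 in subfertile and 5.94 ± 0.27 in fertile cows (SD), a difference of -0.48 (SE 0.16, limma adjusted p = 0.0345) with some overlap between the groups. The adjusted p was 0.103 with the slide as a random block, and the call was also lost without any of fertile cows 1, 3, 4 and 6 or subfertile cows 2, 3 and 4 (differences from -0.50 to -0.40). The largest of the other gaps was that of CTSH, 0.35 larger in subfertile cows (adjusted p = 0.0832), while those of CTSK and CTSB differed by 0.008 and 0.09 (adjusted p = 0.974 and 0.715). With normexp the gaps of CTSH, CTSK and CTSB were smaller in subfertile cows and called, at -0.46 (adjusted p = 0.0024), -0.51 (0.00205) and -0.39 (0.0222), so their direction depends on the background correction. With quantile normalization the gap of CTSH was called at 0.36 (adjusted p = 0.0469). The 2 of 9 called here stand against 31.5% of all genes, but with normexp 7 of 9 were called against 3121 of 4945 genes, and with quantile normalization 4 of 9 against 1634, so the order of these shares depends on the setting.

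**Figure D4:**
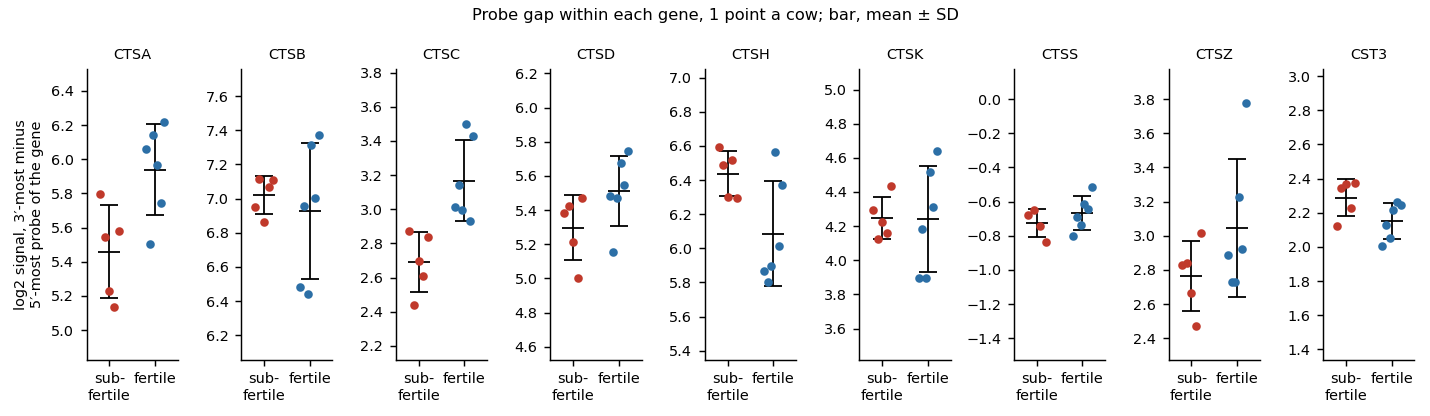
Gap between the 3′-most and the 5′-most probe of each of 9 genes (y axis, log2 signal, the same span of values in each panel), 1 point a cow, with bars for mean ± SD (5 subfertile cows, 4 for CTSS, and 6 fertile cows). In CTSC the subfertile cows lie between 2.44 and 2.87, below all fertile cows, which start at 2.93.

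The remaining cathepsins and cystatins of the array, listed with earlier results of these data known, also showed no called difference by the brightest probe of each gene, against 22.1% of all genes. Of 5 further cathepsins tested none was called by limma or had an unadjusted p below 0.05, and the median difference was 0.04. Among their other probes, 2 of the 3 of CTSO and 1 of the 3 of CTSW were called higher in subfertile cows. CTSV, which the array names CTSL2, differed by -0.23 (limma adjusted p = 0.211), or by -0.53 with quantile normalization (adjusted p = 0.0161), and CTSL, named CTSL1 there, by 0.59 with an SE of 0.60 (adjusted p = 0.505). CTSL and CTSV are close relatives, so their probes may share targets. Of 4 further cystatins none was called or had an unadjusted p below 0.05. The inhibitor annotated as LOC514170, named CSTB on the array, differed by -0.29 (adjusted p = 0.204). LOC512805, also among the 4 and also named CSTB there, differed by 0.06 (adjusted p = 0.779). CSTA, well above background on 2 subfertile and 4 fertile arrays, differed by -0.78 with an SE of 1.27 (adjusted p = 0.692), which was 0.43 with normexp.

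The machinery around the cathepsins held some called genes in both directions. Over the 7 related lists together, 81 genes were tested, and 4 were called higher and 6 lower in subfertile cows (12.3%, against 22.1% of all genes), with a median difference of -0.05. Of the 11 genes that sort lysosomal enzymes or activate proteases, 1 was called, GGA3, an adaptor that moves mannose 6-phosphate receptors out of the Golgi, at -0.43 (SE 0.12, limma adjusted p = 0.0253). Blocking on the slide gave 0.0502. Of 4 lysosomal transcription factors none was called or had an unadjusted p below 0.05 by the brightest probe. TFEB, the regulator of lysosome formation, differed by 0.22 (adjusted p = 0.194), and another of its 3 probes was called higher. TFEC differed by -0.36 (adjusted p = 0.325), while with normexp the dim TFEC differed by 1.07 (adjusted p = 0.000197).

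Of 29 lysosomal hydrolases and activators, 1 was lower and 1 higher in subfertile cows. LIPA, the lipase that splits cholesteryl esters in the lysosome, had a mean of -0.20 ± 0.21 in subfertile and 0.77 ± 0.26 in fertile cows (SD), and the groups did not overlap. The difference was -0.97 (SE 0.15, limma adjusted p = 0.0016), and 3 of its 4 probes were called lower. With the scan day as a random block the adjusted p was 0.0331. No known day held both groups, so that block cannot separate the scan day from fertility. NPC2, which passes cholesterol freed in the lysosome on towards its membrane, was higher by 0.36 (SE 0.12, adjusted p = 0.0482), which became 0.0998 with the slide as a random block.

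The membrane proteins and proton pump subunits of the lysosome, 24 genes, had 2 called higher and 4 lower. ATP6V1G1, a subunit of the pump, averaged 5.89 ± 0.18 in subfertile and 5.49 ± 0.05 in fertile cows (SD), a difference of 0.40 (SE 0.10, limma adjusted p = 0.0150) that was -0.04 with quantile normalization. Its partner ATP6AP1 was lower by 0.56 in subfertile cows at 0.50 ± 0.19, against 1.05 ± 0.29 in fertile cows (adjusted p = 0.0237). CTNS, the cystine exporter, had a difference of -0.44 (adjusted p = 0.0259), and OSTM1, which pairs with the chloride exchanger of the lysosome, one of -0.61 (adjusted p = 0.0393). With the scan day as a random block, LIPA was the only gene of these lists with an adjusted p below 0.05.

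Of the serine proteases that CTSC activates, 4 were tested and ELANE, the elastase of neutrophils, was called. It averaged -3.75 ± 0.41 in subfertile and -5.22 ± 0.54 in fertile cows (SD), with no overlap, a difference of 1.47 (SE 0.27, limma adjusted p = 0.00407). Its sign was opposite to that of CTSC, which was not called at either probe. ELANE was read by 1 probe, a dim one, and the part of array brightness in its difference was not tested. Blocking on the scan day gave an adjusted p of 0.0550. ELANE stands in the neutrophil list below as well.

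Markers of the cells of the endometrium were present: 10 of 11 tested epithelial and 7 of 10 tested stromal markers were well above background on all 11 arrays. A spot dropped as an outlier was counted here as not above background. The markers short of 11 arrays were the epithelial CDH1 and the stromal COL1A1, PDGFRA and THY1. All of them were bright, with means of at least 1.16 in both groups. Of 14 macrophage markers 1 was called, lower, with a median difference of -0.22, and the mean of the list, with each gene centred over cows, ran from -0.49 to 0.42 in subfertile and from -0.74 to 0.43 in fertile cows. CD68 differed by 0.04 (limma adjusted p = 0.857), CSF1R by 0.17 (0.593) and CD14 by -0.57 (0.0742). Another probe was called lower for CD68 (1 of 2) and higher for CD14 (1 of 3). Of 11 epithelial markers 6 were called, all higher in subfertile cows, with a list mean from 0.12 to 0.52 there and from -0.76 to 0.04 in fertile cows. Of these 6, only CLDN3 was still called with quantile normalization (adjusted p = 0.00313) or with the slide as a random block (0.00834). EPCAM was higher by 0.54 (adjusted p = 0.0411, and 0.104 with the slide as a random block) and CDH1 differed by 0.45 (adjusted p = 0.0562). Of 10 stromal markers 2 were higher and 1 lower, with list means from -0.42 to 0.10 in subfertile and from -0.08 to 0.17 in fertile cows. DCN differed by 0.53 (adjusted p = 0.0437, by 1 of 9 probes) and VIM by 0.26 (adjusted p = 0.187). With quantile normalization both turned, to -0.33 and -0.32, as did COL3A1, the other stromal marker called higher (-0.24), and with the slide as a random block DCN had an adjusted p of 0.135. Among 5 endothelial, 8 lymphocyte and 5 neutrophil markers 2, 2 and 1 were called, all higher, and over all genes 22.1% were called and 14.2% were higher. The part of cell composition in the differences of the cathepsins was not tested.

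The genes whose profile over the cows was most like that of a family member were found for the 3 members that varied most, by the root mean square difference between profiles centred on their own means, with 1 probe a gene. For CTSC they included CD83, a surface protein of activated dendritic cells (0.242), and LOC529036 (0.271), over 11 arrays. Both were themselves called lower in subfertile cows, at -0.95 (limma adjusted p = 0.0265) and -0.80 (adjusted p = 0.0347). The matched profile of CTSC holds its own group difference, so a like difference in these genes is no separate result. For CTSK they were CPT1C, NDP and DNM1 (0.136 to 0.147), and for CTSS, over the 10 arrays with a value, SLC25A4, SLC12A4 and PRPF19 (0.132 to 0.144). None of these 6 was called.

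The differences nearest the threshold depended on how the signal was treated. The CTSS probe at 1590 kept its direction under all 10 other settings of scaling, filter, block and variance, from -0.50 to -0.39, and the CTSA probe at 1736 stayed between -0.45 and -0.30. The CTSC probe at 1765 stayed between -0.95 and -0.67. The CTSK probe at 726 kept its direction in 9 of the 10, with normexp as the exception. With the scan day as a random block none of the 23 probes was called.

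**Figure D5:**
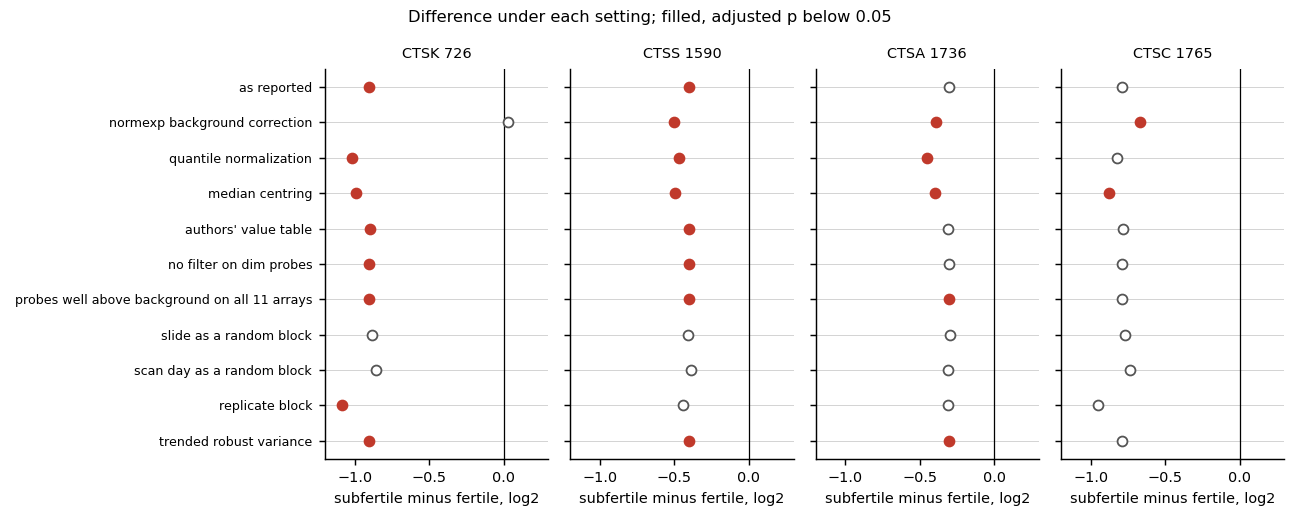
Difference between subfertile and fertile cows (x axis, log2) at the 4 probes with an unadjusted p below 0.05, as reported and under 10 other settings (rows), filled where the adjusted p was below 0.05. The CTSK probe at 726 moves to 0.03 with normexp, and no point is filled with the slide or the scan day as a random block.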

How the data were processed

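Cy3-labelled total RNA of endometrial biopsies was measured on 1-colour Agilent arrays, as the labels' protocols state, and each cow is a separate animal. Feature Extraction 10.5.1.1 read the scans, according to the submitters' processing notes. The deposited scanner files hold fluorescence intensity on a linear scale: processed, mean and background signals. A table of log2 values, also deposited by the authors, was checked against the scanner files as differences from fertile cow 2, and lay within 0.01 of them for 100% of probes on each array apart from fertile cow 1, at 17.0%. Its scaling is not given in the sources used here. Since the file of fertile cow 6 has no header, rounded signals and gene names shifted against its probes, arrays were joined by probe identifier. All columns were mapped (0 left over).

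Control and outlier spots (1 to 156 outliers an array) were dropped, and none was saturated. Values are log2 processed signal minus the 75th percentile of the non-control spots of an array, averaged over replicate spots. A probe was tested if well above background on 5 or more of the 11 arrays of any group (31876 probes). The test was limma 3.58.1 (R 4.3.3), with group as the only term, and Benjamini-Hochberg adjustment over every tested probe at a threshold of 0.05. The brightest tested probe represents a gene. Genes outside the family were named by accession through a table of assembly ARS-UCD2.0 (20595 probes), or as in the files. File headers gave 6 slides and 4 scan days for 10 arrays, and fertile cow 6 was treated as a slide and day of its own. The number of arrays limits precision. Alternatives were normexp (offset 50), quantile and median scaling, the authors' table, 2 other filters, a block for slide, scan day or replicate number, a trended robust variance, other thresholds, and leaving out each cow. The scripts were tested on simulated data.

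All 10 genes of the family are named. Each related list is represented by its called genes of smallest p (at most 4), or else by the 2 genes of smallest p, and CD68, CD14, CSF1R, CDH1, EPCAM, DCN and VIM are named whatever their values. A gene that this naming would include and a probe sequence are not reported here. The members and lists were chosen with earlier results of these data known.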

Additional observations from a re-analysis of the deposited data

Results flagged for a closer look

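The CTSK probe at 1491 stood at 1.06 in fertile cow 6, while the other 5 fertile cows lay between 1.65 and 1.93. The gap to the nearest of them was 0.682 of the range of the group, past Dixon's critical value for 6 samples. Of 46 groups tested in this way (23 probes in each group), 1 was set apart, and chance sets apart about 1 in 20. Without fertile cow 6 the difference at that probe was -0.44 (limma adjusted p = 0.0558), against -0.32 with all 11 cows.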

How the results depend on the processing

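Called probes over the whole array, 7066 as reported, numbered 17081 with normexp, 12179 with no filter on dim probes, 3670 with the slide and 975 with the scan day as a random block, and 4526 (without subfertile cow 2) to 7297 with a cow left out. The 2 called probes of the family became 5 with normexp, 4 with median centring, 1 with the replicate block, 0 with slide or scan day, 0 and 4 at adjusted p below 0.01 and 0.1, and 0 to 3 with a cow left out: 0 without fertile cow 1 or 3 or subfertile cow 2 or 5, and 1 without fertile cow 4 or 5 or subfertile cow 1 or 3. By brightest probe the count of 0 became 2 with normexp or median centring, 1 with quantile normalization, with probes well above background on all 11 arrays or with a trended robust variance, and 0 to 1 with a cow left out. The 10 called genes of the related lists became 31 with normexp, 16 with median centring, 3 with slide, 1 with scan day, 2 and 21 at adjusted p below 0.01 and 0.1, 18 by the probe with the largest spread, and 3 to 13 with a cow left out, with 5 and 6 without fertile cows 1 and 5 and 4 and 3 without subfertile cows 2 and 5. Gaps called over all genes, 1558, became 3121 with normexp, 1015 with slide, 241 with scan day and 1015 with the replicate block, and 1229 to 1592 with a cow left out. The 2 called gaps of the family became 7, 1, 0 and 0 in the same order, 4 with quantile normalization, and 1 to 2 with a cow left out. The cause of these changes was not tested. Array brightness differed by -2.07 to -1.77 and detection by -7.14 to -4.67 percentage points with a cow left out.

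Some differences changed sign. Normexp, which moved the median of all probes to 0.33 (0.07 as reported), turned CTSC 837 to 0.39, CTSH 323 to 0.19, CTSK 305 to 0.11, CTSK 726 to 0.029, CTSD 1898 to -0.0701 and CST3 662 to -0.00334. Quantile normalization turned CTSB 97 to -0.0347, CTSB 1785 to -0.0546, CTSD 1898 to -0.24 and CST3 662 to -0.20, and median centring CTSB 97 to -0.046 and CTSD 1898 to -0.0651. CST6 was 0.00176, 0.00373 and 0.00247 with the authors' table, slide and scan day. With a cow left out the sign turned at CTSB 97 (-0.0607 to 0.13), CTSD 1898 (-0.043 to 0.0697), CTSD 1917 (-0.067 to 0.0401), CTSZ 1351 (-0.13 to 0.0254), CST3 461 (-0.0979 to 0.0674) and CST6 389 (-0.11 to 0.0785). The groups share replicate numbers, but same-numbered cows did not deviate together (correlations from -0.21 to 0.22). With the replicate block CTSB 97 was -0.0607, CTSD 1917 was 0.0332, CST3 461 was 0.0143, and the CTSS probe at 1590 lost its call (adjusted p = 0.0910). Replicate number 6 occurs only in the fertile group, so this block takes fertile cow 6 out of the comparison. Where no value is missing, its differences equal those without fertile cow 6, and it is no separate check of them.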
